A study of Mus musculus with 24 samples.

Results

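Cholesterol synthesis, uptake and export were followed through 32 genes in 4 mouse tumour cell lines edited at B2m. The genes were taken by symbol from the 4 deposited tables, which together list 34866 genes, and all 32 have a row in each table. They form 3 sub-groups: 20 synthesis enzymes, 5 regulators of the SREBP transcription factors, and 7 genes of uptake, transport and export. The study made MHC class I-deficient tumour lines by knocking out B2m, the gene of the class I light chain, with a guide RNA (sgB2m). Each edited line was set against the same line with a non-targeting guide (sgNT), in bulk RNA-seq with 3 libraries per line and guide and 24 in all. The lines were MC38 (colon adenocarcinoma), LLC1 (Lewis lung carcinoma), AKR (esophageal carcinoma) and Hepa1-6 (hepatocellular carcinoma), all kept in DMEM with fetal bovine serum and given no other treatment in the labels. The labels do not say whether a line is a clone or a pool, nor whether the libraries came from separate cultures, so p-values measure the spread between 3 libraries, which may be technical.

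Cells make cholesterol from acetyl-CoA through mevalonate, the isoprenoids, squalene and lanosterol, and also take it up with lipoproteins that are emptied in the lysosome. When sterols run low in the endoplasmic reticulum (ER), the escort SCAP carries SREBP2 to the Golgi for cleavage, and the released factor raises synthesis and uptake genes. When sterols are plentiful, INSIG proteins hold SCAP back, and oxysterols activate LXR, which raises the exporters ABCA1 and ABCG1 and the ubiquitin ligase MYLIP.

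B2m was lower in every sgB2m library than in every sgNT library of its line, with log2 fold changes between -1.78 in MC38 and -1.35 in Hepa1-6. Libraries held 25 to 49.7 M reads in genes. The share of mitochondrial transcripts moved with the guide: it was 4.19% ± 0.11 in sgB2m and 5.1% ± 0.113 in sgNT in Hepa1-6 (SD, n = 3 each), and 4.04% ± 0.00923 in sgB2m and 3.52% ± 0.0273 in sgNT in AKR. It was 3.34% ± 0.0389 in sgB2m and 3.16% ± 0.0792 in sgNT in MC38, and 4.52% ± 0.0862 in sgB2m and 4.43% ± 0.0563 in sgNT in LLC1, where alone the libraries overlapped. In Hepa1-6, 5 of 8 genes that mark hepatocytes averaged a log2 value of 6 or more (Alb, Afp, Ttr, Hnf4a and Fga). Few markers of the labelled tissue reached that level in the other lines. MC38 had 1 of 6 intestinal markers at that level (Lgals4) and 2 of 7 squamous ones (Krt14 and Sox2), and Cdx2, Krt20 and Cdh17 have no value here. LLC1 had 2 of 6 alveolar markers (Napsa and Abca3), and Nkx2-1 and Sftpa1 have no value here. Abca3 was at that level in all 4 lines, and LLC1 also had 1 of 6 intestinal markers (Cdx2). AKR had 2 of 7 squamous markers (Krt13 and Sox2) and 3 of 6 intestinal ones (Cdx2, Krt20 and Lgals4), and Krt5, Krt4 and Krt6a have no value here. In MC38 and AKR more markers of another tissue than of the labelled one thus reached that level, and Hepa1-6 had 4 of 6 intestinal ones (Vil1, Krt20, Lgals4 and Cdh17). Of the 6 immune and endothelial markers only Pecam1 did, in AKR and Hepa1-6, and Cd3e has no value in any line. Summed normalised counts of several marker lists moved with the guide without overlap of the libraries. In LLC1 these were the alveolar list (1370 to 1499 in sgB2m and 1575 to 1643 in sgNT) and the immune and endothelial list (0 to 4.96 in sgB2m and 6.10 to 14.7 in sgNT). In Hepa1-6 they were the hepatocyte (318586 to 321357 in sgB2m and 345422 to 351805 in sgNT), squamous (237 to 280.02 in sgB2m and 341 to 397 in sgNT), alveolar (3120.1 to 3254 in sgB2m and 3383 to 3476 in sgNT) and immune and endothelial lists (555 to 609 in sgB2m and 621 to 715 in sgNT). In MC38 they were the squamous (1989.7 to 2053 in sgB2m and 2206 to 2398 in sgNT) and alveolar lists (917 to 988 in sgB2m and 831 to 879 in sgNT). In AKR they were the hepatocyte (245 to 256 in sgB2m and 111 to 167 in sgNT), intestinal (906 to 1072 in sgB2m and 454 to 584 in sgNT), squamous (658 to 706 in sgB2m and 605 to 618 in sgNT) and immune and endothelial lists (120.4 to 138 in sgB2m and 141 to 174 in sgNT). The part of these shares and sums in the results was not tested. In bulk RNA a lower level in every cell and fewer expressing cells cannot be told apart.

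The 32 genes moved in opposite directions in different lines. Most of them rose in LLC1 sgB2m cells and most fell in Hepa1-6 sgB2m cells. In MC38 and AKR sgB2m cells fewer passed, and in AKR they went both ways. Changes are differences of log2(normalised count + 1), sgB2m minus sgNT, and calls rest on limma with adjusted p under 0.05 over every gene tested in the line. In LLC1, 27 of 31 tested members were higher in sgB2m and 2 lower, where 20.7% of the 15323 tested genes were higher and 21.8% lower. In Hepa1-6, 6 of 32 were higher and 24 lower, where 18.6% of the 14910 tested genes were higher and 19.2% lower. In MC38, 16 of 32 were higher and 1 lower, where 15.9% of the 16532 tested genes were higher and 15.8% lower. In AKR, 17 of 32 were higher and 6 lower, where 21% of the 15882 tested genes were higher and 21.9% lower. The Hepa1-6 share of higher members and the AKR share of lower members (18.8% each) were near those of all genes. The count of lower members in AKR stood at 3 without sgB2m replicate 2, sgNT replicate 1 or sgNT replicate 2, and that in LLC1 at 1 without sgNT replicate 3. The single lower member of MC38, Abcg1, was not called without sgB2m replicate 1 or 3 or sgNT replicate 1 or 3, which left 0. The low-value filter kept all 32 members except Abca1 in LLC1. The medians over all tested genes lay between -0.0093 and 0.0092 in the 4 lines. The sgB2m and sgNT libraries did not overlap for 29 of 31 tested members in LLC1, and for 30 of 32 in Hepa1-6, 22 in MC38 and 25 in AKR, where this held for 51.8%, 47.6%, 45% and 52.5% of the tested genes. Values after ± are standard errors of the log2 fold change unless SD is named.

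**Figure D1:**
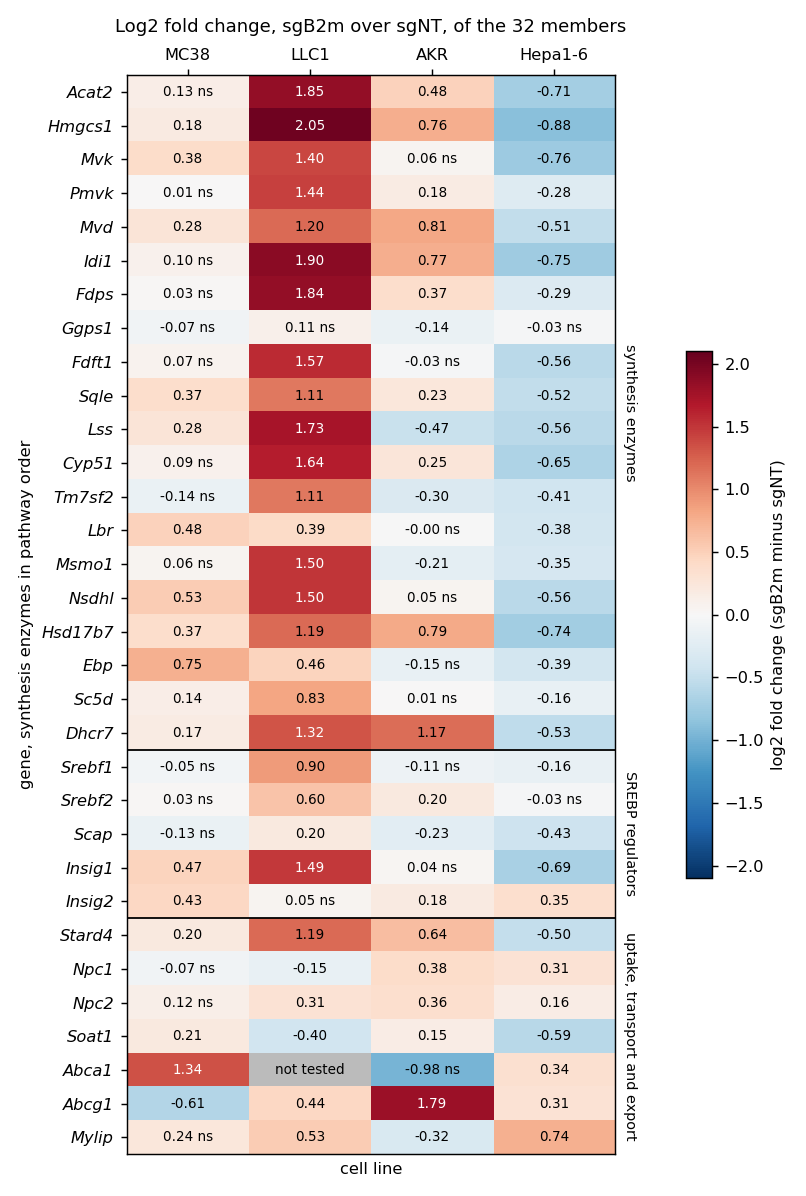
Log2 fold change (sgB2m minus sgNT) of the 32 members in rows and the 4 lines in columns, red for higher in sgB2m and blue for lower. "ns" marks values that did not pass an adjusted p of 0.05, and grey marks Abca1 in LLC1, which was not tested. The LLC1 column is mostly red with a maximum of 2.05 (Hmgcs1), and the Hepa1-6 column is mostly blue with a minimum of -0.88 (Hmgcs1).

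The share of all gene reads that fell on the 32 members was higher in sgB2m than in sgNT in LLC1, MC38 and AKR and lower in Hepa1-6. It was 0.517% ± 0.00305 in LLC1 sgB2m libraries and 0.255% ± 0.00284 in LLC1 sgNT libraries (SD, n = 3 each, as in the following shares). In Hepa1-6 it was 0.35% ± 0.00296 in sgB2m and 0.461% ± 0.00212 in sgNT. In MC38 it was 0.782% ± 0.00299 in sgB2m and 0.698% ± 0.00159 in sgNT, and in AKR 0.27% ± 0.00293 in sgB2m and 0.226% ± 0.00088 in sgNT. In none of the 4 lines did the groups overlap. A share of a library does not rest on the size factors, which were set for each line apart. LLC1 sgNT cells stood near AKR sgNT cells, and LLC1 sgB2m cells stood between Hepa1-6 sgNT and MC38 sgNT cells.

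**Figure D2:**
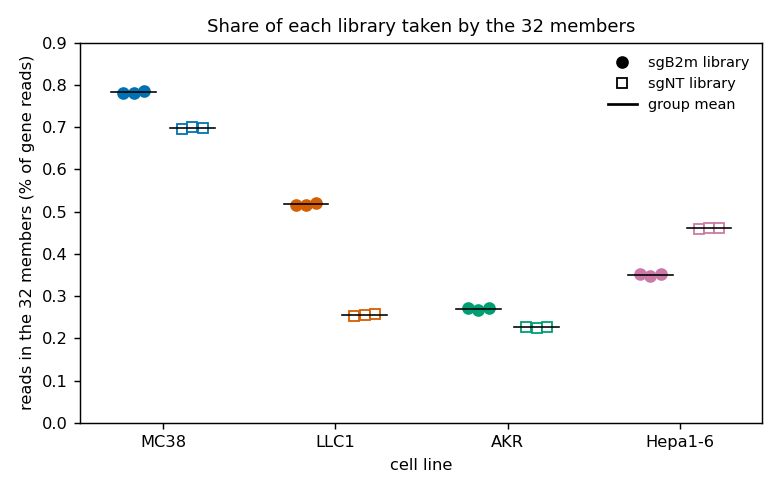
Percent of all gene reads that fell on the 32 members in each of the 24 libraries (filled circles sgB2m, open squares sgNT, lines the group means), by cell line. The axis starts at 0, and the LLC1 sgB2m libraries lie at 0.517% on average against 0.255% in the sgNT libraries, while in Hepa1-6 the sgB2m libraries lie below the sgNT libraries.

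Among the synthesis enzymes, 19 of 20 were higher in LLC1 sgB2m cells and 19 of 20 were lower in Hepa1-6 sgB2m cells, with median log2 fold changes of 1.42 and -0.53. In both lines the exception was Ggps1, which makes geranylgeranyl diphosphate for protein prenylation off the sterol route, at 0.11 ± 0.049, adjusted p = 0.0749 in LLC1 and -0.03 ± 0.095, adjusted p = 0.85 in Hepa1-6. In MC38, 11 of 20 were higher and none lower, with a median of 0.15. In AKR, 10 were higher and 4 lower, with a median of 0.12. That lower share (20%) was near the 21.9% of all tested genes. In LLC1, 16 of the 20 were at least 2-fold higher, where 2.17% of all tested genes were.

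Hmgcs1, which condenses acetoacetyl-CoA and acetyl-CoA to HMG-CoA, had the largest change among the members in LLC1 and in Hepa1-6. The gene spans 119690379 to 119708260 of chromosome 13 in mm10, plus strand. In LLC1 its normalised counts were 14773, 14488 and 13778 in sgB2m, against 3482, 3552 and 3386 in sgNT, a change of 2.05 ± 0.035, adjusted p = 1.8e-14. In Hepa1-6 they were 9889, 9346 and 9556 in sgB2m, against 17512, 17796 and 17800.4 in sgNT, a change of -0.88 ± 0.026, adjusted p = 9.97e-13. The groups were apart in both lines, with all 3 sgB2m libraries above the sgNT libraries in LLC1 and all 3 below them in Hepa1-6. In MC38 they were 30300.4, 30276 and 30027 in sgB2m, against 27510.4, 26202 and 26112 in sgNT (0.18 ± 0.035, adjusted p = 0.0032, and 0.0533 without the intensity trend), and in AKR 3439, 3254 and 3600.0 in sgB2m, against 1968, 2019.9 and 2106 in sgNT (0.76 ± 0.053, adjusted p = 1.75e-06). In those lines, too, every sgB2m library lay above every sgNT library.

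Promoter bases of 4 members are shown to set side by side members that moved alike and members that did not. Hmgcs1 and Idi1 were higher in LLC1 and AKR and lower in Hepa1-6, Lss parted from them in AKR, where it was lower, and Mylip was higher in LLC1 and Hepa1-6 and lower in AKR. In MC38 the grouping was another, with Hmgcs1 and Lss higher and Idi1 and Mylip not passing. The bases shown are the 200 before the transcription start in RefSeq on GRCm38.p6, written 5′ to 3′ on the gene's strand. The windows are chr13:119690151-119690350 for Hmgcs1, chr13:8885406-8885605 for Idi1, chr10:76531405-76531604 for Lss and chr13:45389542-45389741 for Mylip, all on the plus strand. Capitals mark matches to TCACNCCAC, a sterol regulatory element bound by SREBPs, and to CCAAT, the box bound by NF-Y, which acts beside SREBPs. CCAAT reads ATTGG where it lies on the other strand.
Hmgcs1: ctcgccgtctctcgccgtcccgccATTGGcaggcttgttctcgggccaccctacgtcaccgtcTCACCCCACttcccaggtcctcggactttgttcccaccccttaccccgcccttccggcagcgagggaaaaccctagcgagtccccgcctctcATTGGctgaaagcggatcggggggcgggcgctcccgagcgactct
Idi1: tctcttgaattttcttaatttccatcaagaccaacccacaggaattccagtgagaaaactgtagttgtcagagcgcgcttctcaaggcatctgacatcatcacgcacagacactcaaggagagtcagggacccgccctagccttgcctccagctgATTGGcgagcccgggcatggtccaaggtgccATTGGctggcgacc
Lss: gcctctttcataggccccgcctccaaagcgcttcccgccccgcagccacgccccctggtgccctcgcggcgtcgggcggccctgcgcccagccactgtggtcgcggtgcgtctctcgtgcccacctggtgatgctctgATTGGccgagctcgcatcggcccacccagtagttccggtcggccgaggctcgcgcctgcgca
Mylip: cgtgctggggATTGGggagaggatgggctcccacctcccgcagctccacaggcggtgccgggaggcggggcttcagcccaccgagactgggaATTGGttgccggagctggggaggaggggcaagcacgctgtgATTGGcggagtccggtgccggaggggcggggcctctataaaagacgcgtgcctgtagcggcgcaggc
In the full entries of 300 bases (250 before and 50 after the start, both strands), the Hmgcs1 entry was the single one of 26 members with an entry to hold TCACNCCAC, which 1.44% of the 27025 genes with an entry hold. CCAAT was in 16 of 17 synthesis enzymes, 4 of 5 regulators and 3 of 4 genes of uptake, transport and export, and in 41.1% of all genes. An exact direct repeat of AGGTCA with 4 bases between, 1 form of the element bound by LXR, was in none of the 26 and in 0.0148% of all genes. The matches do not overlap in the windows shown. These matches describe letters and not bound sites. Only these exact strings were searched, within 300 bases, so that a gene without a match may still hold such an element.

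Some members share genomic positions with other genes in GENCODE M21. A gene on the opposite strand overlaps 13 of the 32, among them Fdft1 (Ctsb, a lysosomal protease), Cyp51 (Akap9), Npc1 (Rmc1), Srebf1 (Rai1), Ggps1 (Arid4b) and Lbr (Dnah14), and, with predicted or uncharacterised genes, Hmgcs1, Idi1, Mvd, Lss, Insig2, Scap and Soat1. The library kit kept the strand, per the labels. The strand setting of the counting is not given in the sources used here. Reads of the opposite-strand pairs may therefore not have been kept apart. A gene on the same strand overlaps 6 of the 32, and no strand setting parts these pairs. They are Fdps (Gm43738, over 7512 bases), Srebf2 (Gm49502, over 2110 bases), Tm7sf2 (Vps51, over 532 bases), Lbr, Srebf1 and Abcg1.

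Behind Hmgcs1, the largest rises in LLC1 were those of Idi1, Acat2 and Fdps, all before squalene. Acat2, which makes acetoacetyl-CoA, had 4394, 4327 and 4168 in sgB2m, against 1220.2, 1139 and 1208 in sgNT (1.85 ± 0.046, adjusted p = 9.95e-13). Idi1, the isomerase that forms dimethylallyl diphosphate, had 5210.1, 5139 and 5079.8 in sgB2m, against 1373, 1409.8 and 1343 in sgNT (1.90 ± 0.041, adjusted p = 2.03e-13). In both genes every sgB2m library lay above every sgNT library. Fdps, the farnesyl diphosphate synthase, changed by 1.84 ± 0.037, adjusted p = 1.09e-13. Nearer the enzyme median of 1.42 or below it, the kinases Mvk and Pmvk and the decarboxylase Mvd, which act between mevalonate and isopentenyl diphosphate, changed by 1.40 ± 0.089, adjusted p = 1.89e-08, 1.44 ± 0.08, adjusted p = 5.15e-09 and 1.20 ± 0.062, adjusted p = 2.54e-09. In Hepa1-6 the same steps were lower: Acat2 had 1567, 1497 and 1514 in sgB2m, against 2464, 2598 and 2434 in sgNT (-0.71 ± 0.05, adjusted p = 1.86e-08), and Idi1 had 3004, 3024 and 3015 in sgB2m, against 5045, 5104 and 5009.7 in sgNT (-0.75 ± 0.035, adjusted p = 2.18e-10). Mvk fell by 0.76, Mvd by 0.51, Pmvk by 0.28 and Fdps by 0.29 on the log2 scale, with adjusted p of at most 0.00212.

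The steps from squalene to cholesterol changed in the same directions in these lines. Sqle, the squalene epoxidase, had 7665, 7900.4 and 8307 in sgB2m, against 3746, 3729 and 3549 in sgNT in LLC1 (1.11 ± 0.039, adjusted p = 3.2e-11) and 11103, 11168 and 11284 in sgB2m, against 15912, 16276 and 15938 in sgNT in Hepa1-6 (-0.52 ± 0.024, adjusted p = 1.51e-10). Its groups were apart in both. Lss, which closes lanosterol, changed by 1.73 ± 0.037, adjusted p = 1.95e-13 in LLC1, the squalene synthase Fdft1 by 1.57 ± 0.043, adjusted p = 3e-12 and the lanosterol demethylase Cyp51 by 1.64 ± 0.038, adjusted p = 4.29e-13. In Hepa1-6 these 3 genes were at -0.56, -0.56 and -0.65, all lower (adjusted p at most 1.91e-07). The smallest changes called among the synthesis enzymes in LLC1 were those of Lbr and Ebp. Lbr, a lamin-bound sterol reductase, changed by 0.39 ± 0.045, adjusted p = 6.8e-06, and the isomerase Ebp by 0.46 ± 0.13, adjusted p = 0.00837. Tm7sf2, the other reductase of the same step as Lbr, changed by 1.11 ± 0.15, adjusted p = 2.84e-05. The smallest fall called among these enzymes in Hepa1-6 was that of the desaturase Sc5d (-0.16 ± 0.05, adjusted p = 0.0196), whose call ended without sgB2m replicate 2 or sgNT replicate 3 (adjusted p = 0.0856 and 0.084).

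In MC38 the increases were small. Ebp led with 2015, 2176 and 2143 in sgB2m, against 1283, 1187 and 1284 in sgNT (0.75 ± 0.064, adjusted p = 2.07e-05), and all 3 sgB2m libraries lay above the sgNT libraries. The dehydrogenase Nsdhl (0.53 ± 0.045, adjusted p = 2.18e-05), Lbr (0.48 ± 0.058, adjusted p = 0.000208), Mvk (0.38 ± 0.059, adjusted p = 0.000902), Sqle and the ketosteroid reductase Hsd17b7 (0.37 ± 0.056, adjusted p = 0.000902) came next. Sqle had 19439, 19872 and 20269.8 in sgB2m, against 15754, 14962 and 15405 in sgNT (0.37 ± 0.038, adjusted p = 7.23e-05), again without overlap. Idi1 had 13119.9, 13503 and 13677 in sgB2m, against 12646, 12318 and 12745 in sgNT and Acat2 14357, 14721 and 14092 in sgB2m, against 12445, 13004 and 13939 in sgNT, which did not pass (0.10 ± 0.037, adjusted p = 0.0784 and 0.13 ± 0.047, adjusted p = 0.0549). Their groups did not overlap, and both passed when 1 library was left out, Idi1 without sgNT replicate 1 (adjusted p = 0.0379) and Acat2 without sgNT replicate 3 (0.00994). The position of the genes moved with these values: in MC38 the median of the 1013 tested genes of chromosome 1 was 0.23, that of the 517 genes of chromosome X was 0.14 and that of the 437 genes of chromosome 18 was -0.21. All 4 members on chromosome 1 (Lbr, Hsd17b7, Insig2 and Soat1) and both on chromosome X (Nsdhl and Ebp) were higher. Outside these 3 chromosomes 9 of 24 members were higher and 1 lower, among them 7 of 16 synthesis enzymes. The part of chromosome position in the result was not tested. The call of Sc5d (0.14 ± 0.042, adjusted p = 0.0335) ended without sgB2m replicate 1, 2 or 3 or sgNT replicate 2 (adjusted p from 0.0681 to 0.117). That of the last reductase Dhcr7 (0.17 ± 0.055, adjusted p = 0.0384) ended without sgB2m replicate 1 or 2 or sgNT replicate 2 or 3 (0.0517 to 0.158).

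In AKR, some enzymes were called higher and others lower, the lower ones at a share near that of all genes. Dhcr7 led with 1317, 1209 and 1328 in sgB2m, against 592, 502 and 621 in sgNT (1.17 ± 0.086, adjusted p = 2.38e-06), followed by Mvd (0.81 ± 0.093, adjusted p = 5.18e-05), Hsd17b7 (0.79 ± 0.09, adjusted p = 5.04e-05), Idi1 and Hmgcs1. Idi1 had 1868, 1776 and 1899 in sgB2m, against 1030.2, 1121 and 1107 in sgNT (0.77 ± 0.058, adjusted p = 2.91e-06), Acat2 1865, 1839 and 1853 in sgB2m, against 1354, 1308 and 1312 in sgNT (0.48 ± 0.05, adjusted p = 2.52e-05) and Sqle 3095, 3032 and 3084 in sgB2m, against 2529, 2624 and 2698 in sgNT (0.23 ± 0.045, adjusted p = 0.0019). All of these sgB2m groups lay above their sgNT groups. Lss fell, with 1507, 1736 and 1586 in sgB2m, against 2225, 2198 and 2248 in sgNT (-0.47 ± 0.059, adjusted p = 0.0001), and so did the methyl oxidase Msmo1 (-0.21 ± 0.047, adjusted p = 0.00459), both without overlap. Tm7sf2 and Ggps1 were called lower, and Pmvk higher, by narrow margins. Tm7sf2 (-0.30 ± 0.11, adjusted p = 0.0499) lost its call without sgB2m replicate 1 or 2 or any of the 3 sgNT replicates (adjusted p from 0.0649 to 0.173). Ggps1 (-0.14 ± 0.049, adjusted p = 0.0359) lost it without sgB2m replicate 2 or 3 or any of the 3 sgNT replicates (0.055 to 0.112), and Pmvk (0.18 ± 0.059, adjusted p = 0.0286) without sgB2m replicate 2 or 3 or sgNT replicate 2 or 3 (0.057 to 0.101). With the replicate number as a block these 3 genes were not called either (adjusted p between 0.0506 and 0.0712). Fdft1, Lbr, Nsdhl, Sc5d, Mvk and Ebp did not pass, with values between -0.15 and 0.06.

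**Figure D3:**
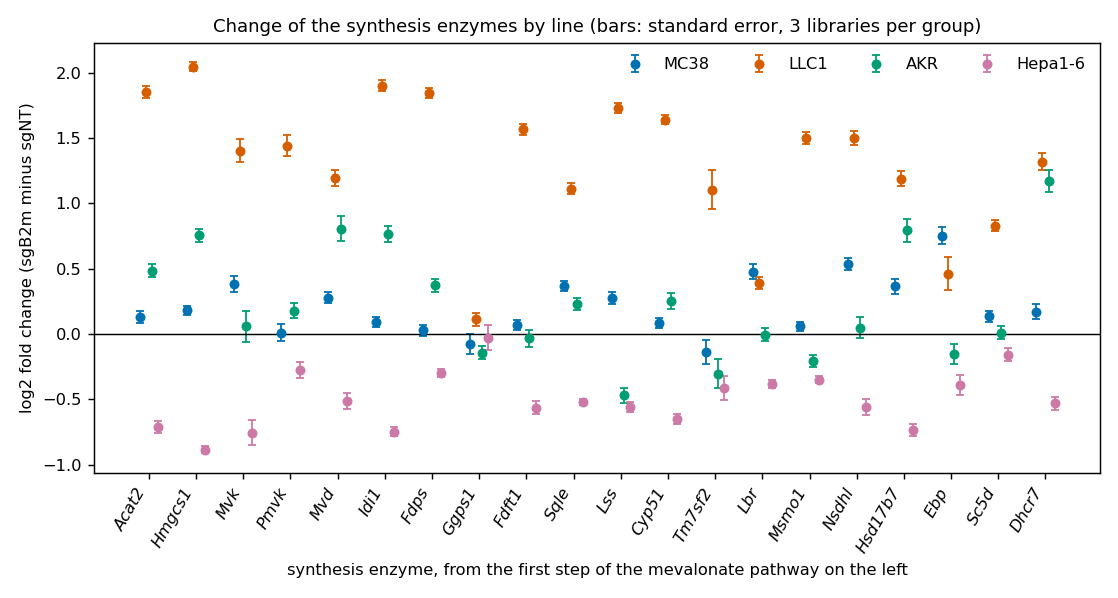
Log2 fold change (sgB2m minus sgNT) of the 20 synthesis enzymes with the standard error, in pathway order from left to right, for the 4 lines by colour. LLC1 lies above the other lines at most steps, between 0.11 (Ggps1) and 2.05 (Hmgcs1), Hepa1-6 lies below 0 at every step, and AKR crosses 0 between neighbouring steps.

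Among the 5 regulators, 4 were higher in LLC1 sgB2m cells and none lower, and 3 were lower and 1 higher in Hepa1-6. In MC38, 2 were higher and none lower, and in AKR 2 were higher and 1 lower. The shares higher in Hepa1-6 and lower in AKR (20% each) were near the 18.6% and 21.9% of all tested genes. Insig1, the ER anchor of SCAP and itself an SREBP target, had 8834, 8654 and 8454 in sgB2m, against 3087, 3137 and 2992 in sgNT in LLC1 (1.49 ± 0.035, adjusted p = 5.17e-13). In Hepa1-6 it had 1650.4, 1516 and 1426 in sgB2m, against 2444, 2488 and 2448 in sgNT (-0.69 ± 0.056, adjusted p = 1.17e-07), and in MC38 20418, 21169 and 20741 in sgB2m, against 14720.2, 14827 and 15317 in sgNT (0.47 ± 0.036, adjusted p = 1.08e-05). Its groups were apart in these 3 lines, upward in LLC1 and MC38 and downward in Hepa1-6. In AKR it had 1935, 1981 and 1909 in sgB2m, against 1850.0, 1916 and 1891 in sgNT (0.04 ± 0.048, adjusted p = 0.514), and the groups overlapped.

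Insig2, the second ER anchor, which is not induced by SREBPs, did not follow Insig1. It was higher in Hepa1-6, where Insig1 was lower, with 2372, 2236 and 2390.4 in sgB2m, against 1892, 1758 and 1844 in sgNT (0.35 ± 0.05, adjusted p = 4.97e-05). In LLC1, where Insig1 rose, it changed by 0.05 ± 0.045, adjusted p = 0.364, which did not pass. It was higher in MC38 (0.43 ± 0.061, adjusted p = 0.000547), where it lies on chromosome 1 with its median of 0.23, and in AKR (0.18 ± 0.056, adjusted p = 0.021), where its call ended without sgB2m replicate 3 or sgNT replicate 2 or 3 (adjusted p from 0.0624 to 0.0848).

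Srebf2, which encodes the main factor for cholesterol genes, had 10433, 9989 and 11303 in sgB2m, against 6936, 7017 and 6930.1 in sgNT in LLC1 (0.60 ± 0.039, adjusted p = 2.62e-08) and 8545, 8755 and 8558 in sgB2m, against 7232, 7491 and 7737 in sgNT in AKR (0.20 ± 0.039, adjusted p = 0.00171). All sgB2m libraries lay above the sgNT libraries in both. In Hepa1-6 it had 8792, 8809.7 and 9257 in sgB2m, against 8697, 9571 and 9175 in sgNT (-0.03 ± 0.036, adjusted p = 0.55), and in MC38 18181, 17164 and 18528 in sgB2m, against 17656, 17765 and 17261 in sgNT (0.03 ± 0.04, adjusted p = 0.595). The groups overlapped in both, and Srebf2 had no called change in Hepa1-6, where the enzymes were lower. Srebf1, whose products drive mainly fatty acid genes, changed by 0.90 ± 0.059, adjusted p = 2.53e-08 in LLC1 and by -0.16 ± 0.045, adjusted p = 0.00918 in Hepa1-6, where the call ended without sgNT replicate 3 (adjusted p = 0.0571). It did not pass in MC38 (-0.05) and AKR (-0.11). Scap was lower in Hepa1-6 (-0.43 ± 0.063, adjusted p = 5.78e-05) and in AKR, with 974, 874 and 928 in sgB2m, against 1062, 1163 and 1026 in sgNT (-0.23 ± 0.071, adjusted p = 0.0235), and higher in LLC1 (0.20 ± 0.053, adjusted p = 0.00631), where the call ended without the intensity trend (adjusted p = 0.067). The AKR call ended without sgB2m replicate 2 or 3 or sgNT replicate 1 or 2 (adjusted p from 0.05 to 0.102).

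**Figure D4:**
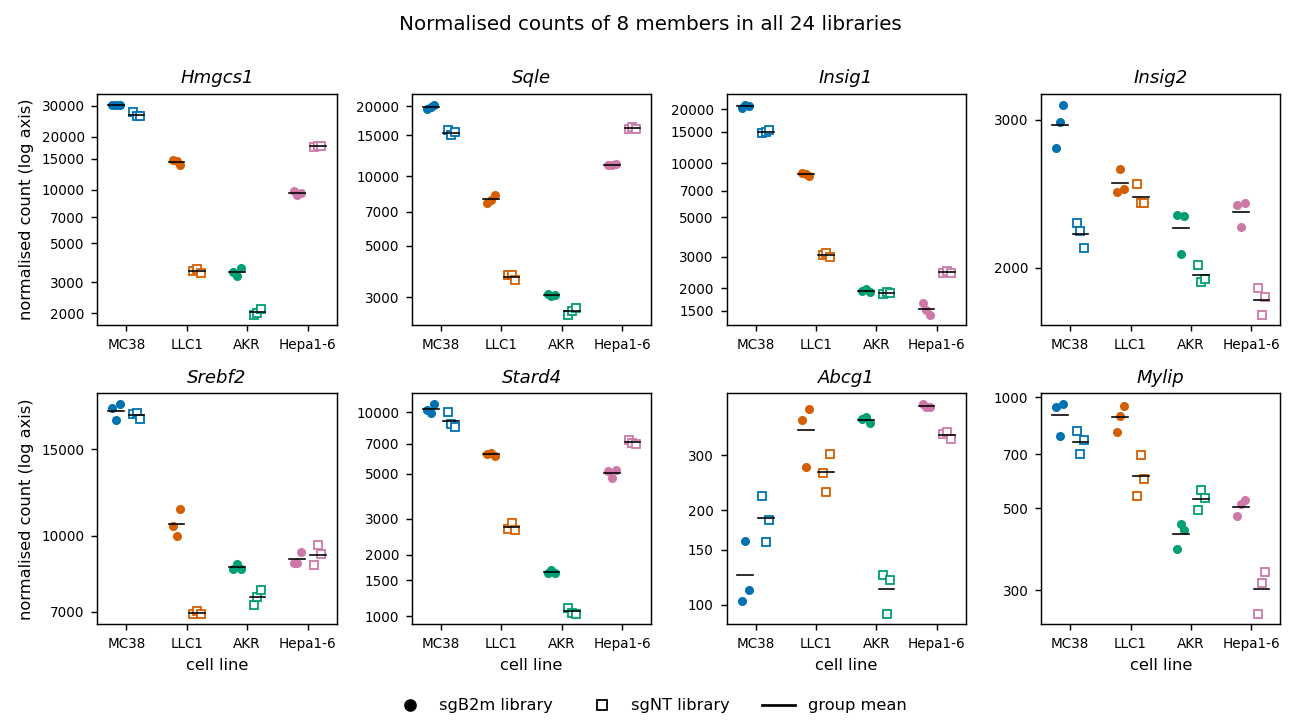
Normalised counts on a log axis of 8 members in all 24 libraries (filled circles sgB2m, open squares sgNT, lines the group means), by cell line. Hmgcs1, Sqle, Insig1 and Stard4 lie higher in sgB2m than in sgNT in LLC1 and lower in Hepa1-6, while Insig2, Abcg1 and Mylip lie higher in sgB2m in Hepa1-6. Each line was normalised apart, so levels are not compared across lines.

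Uptake, transport and export genes did not follow the enzymes as one block. In LLC1, 4 of 6 tested were higher and 2 lower, in Hepa1-6 5 of 7 higher and 2 lower, in AKR 5 higher and 1 lower, and in MC38 3 higher and 1 lower. The lower shares in AKR and MC38 (14.3% each) were below the 21.9% and 15.8% of all tested genes. Those in LLC1 and Hepa1-6 were 33.3% and 28.6%, where 21.8% and 19.2% of all tested genes were lower. Stard4, a soluble sterol carrier under SREBP control, went the way of the enzymes. It had 6235, 6281 and 6115 in sgB2m, against 2665, 2858 and 2648 in sgNT in LLC1 (1.19 ± 0.039, adjusted p = 2e-11) and 5164, 4748 and 5184 in sgB2m, against 7339.9, 7036 and 7019 in sgNT in Hepa1-6 (-0.50 ± 0.038, adjusted p = 5.28e-08). In AKR it had 1624, 1677 and 1630.2 in sgB2m, against 1099, 1036 and 1026 in sgNT (0.64 ± 0.055, adjusted p = 7.24e-06), and in these 3 lines the groups were apart. In MC38 it had 10292, 9964 and 10981 in sgB2m, against 10029.5, 8801 and 8449.5 in sgNT, with overlapping groups (0.20 ± 0.065, adjusted p = 0.042), on chromosome 18 with its median of -0.21. That call ended without any one of 5 libraries, sgB2m replicates 1, 2 and 3 and sgNT replicates 2 and 3 (adjusted p from 0.0532 to 0.153).

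The lysosomal pair that passes cholesterol out of the lysosome, Npc1 and Npc2, was higher in AKR (0.38 ± 0.057, adjusted p = 0.000332 and 0.36 ± 0.048, adjusted p = 0.000141) and in Hepa1-6 (0.31 ± 0.067, adjusted p = 0.00189 and 0.16 ± 0.05, adjusted p = 0.0195). In LLC1 Npc2 was higher (0.31 ± 0.03, adjusted p = 1.44e-06) and Npc1 lower (-0.15 ± 0.044, adjusted p = 0.0129). In MC38 neither passed (0.12 for Npc2 and -0.07 for Npc1). The MC38 groups of Npc2 did not overlap (adjusted p = 0.056), and it passed without sgNT replicate 3 (adjusted p = 0.0128). It also passed there with median centring (0.0326) and with the stricter filter (0.0499). Npc2 lies on chromosome 12, where the median of the 613 tested genes in MC38 was 0.10. The LLC1 call of Npc1 ended without sgNT replicate 3 (adjusted p = 0.0592), and the Hepa1-6 call of Npc2 without sgB2m replicate 1 or sgNT replicate 1 or 2 (0.0617 to 0.084). Soat1, which esterifies cholesterol for storage, was lower in LLC1, with 5181, 4921 and 4769.9 in sgB2m, against 6403, 6404 and 6798 in sgNT (-0.40 ± 0.039, adjusted p = 1.56e-06). It was lower in Hepa1-6 as well, with 169, 145 and 149 in sgB2m, against 217, 235 and 244 in sgNT (-0.59 ± 0.14, adjusted p = 0.00442), and its groups were apart in both. It was higher in MC38 (0.21 ± 0.057, adjusted p = 0.0191), again on chromosome 1 with its median of 0.23, and in AKR (0.15 ± 0.048, adjusted p = 0.0234). The MC38 call ended without sgB2m replicate 3 or sgNT replicate 2 (adjusted p = 0.0859 and 0.076), and the AKR call without sgB2m replicate 2 or 3 or sgNT replicate 2 (0.0707 to 0.106).

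The LXR-linked genes Abca1, Abcg1 and Mylip were all called higher in Hepa1-6, as were Abcg1 and Mylip in LLC1. In MC38 and AKR their calls went both ways. Abca1, the exporter to lipid-poor apolipoproteins, was the member with the largest rise in MC38, with 569, 493 and 626 in sgB2m, against 246, 223 and 196 in sgNT (1.34 ± 0.13, adjusted p = 6.08e-05). In Hepa1-6 it had 2458, 2140.1 and 2517 in sgB2m, against 1919.8, 1703 and 1992 in sgNT (0.34 ± 0.068, adjusted p = 0.000971), and in both lines the groups were apart. It was weak in AKR, with 8, 14 and 14 reads in the sgB2m libraries, against 25, 15 and 34 in the sgNT libraries, or 7.96, 14.3 and 13.2 in sgB2m, against 27.5, 14.6 and 32.7 in sgNT as normalised counts. Its groups did not overlap there, but it did not pass (-0.98 ± 0.43, adjusted p = 0.0875), and it passed without sgNT replicate 2 (adjusted p = 0.0375). In LLC1 it had 0 reads in every sgB2m library, against 9, 0 and 0 in the sgNT libraries, and was not tested.

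Abcg1, the exporter to lipoprotein particles, was the member with the largest rise in AKR, with 391, 397 and 381 in sgB2m, against 125, 93.4 and 119 in sgNT (1.79 ± 0.13, adjusted p = 2.35e-06), and its groups were apart. In Hepa1-6 it was higher (0.31 ± 0.10, adjusted p = 0.0219), a call that ended without sgB2m replicate 1 or sgNT replicate 1 or 3 (adjusted p from 0.0501 to 0.0706). In LLC1 it was called higher (0.44 ± 0.15, adjusted p = 0.031) with overlapping groups, and the call ended without sgB2m replicate 1 or 3 or sgNT replicate 1 or 2 (0.0665 to 0.138). In MC38, where Abca1 rose, it had 103, 159.5 and 111 in sgB2m, against 222, 158 and 186 in sgNT (-0.61 ± 0.21, adjusted p = 0.0498). Those groups overlapped, and the call ended without sgB2m replicate 1 or 3 or sgNT replicate 1 or 3 (0.0984 to 0.158) and with the replicate block (adjusted p = 0.0707).

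Mylip, the ligase that marks lipoprotein receptors for degradation, was the highest of the sub-group in Hepa1-6, with 475, 514 and 527 in sgB2m, against 259, 315 and 336 in sgNT (0.74 ± 0.12, adjusted p = 9.75e-05). In LLC1 it was higher as well, with 807, 888 and 949 in sgB2m, against 538, 696 and 599 in sgNT (0.53 ± 0.094, adjusted p = 0.000344). The groups were apart in both lines. In AKR it was lower, with 387, 455 and 436 in sgB2m, against 496, 562 and 533 in sgNT (-0.32 ± 0.091, adjusted p = 0.0164), a call that ended without sgNT replicate 2 (adjusted p = 0.0671). In MC38 it had 939, 786 and 959 in sgB2m, against 808, 701 and 764 in sgNT, with overlapping groups (0.24 ± 0.10, adjusted p = 0.0967), and it passed without sgB2m replicate 2 (adjusted p = 0.0363).

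The change differed between the 4 lines for 30 of the 31 members tested in all of them (F test of the line by guide interaction in limma), where 69.8% of the 12674 genes tested in all 4 lines differed. Ggps1 did not pass (adjusted p = 0.14). The lowest p were those of Hmgcs1, Idi1 and Acat2. The LLC1 change of Hmgcs1 exceeded that in Hepa1-6 by 2.93 ± 0.052 (SE, adjusted p = 1.29e-21), that of Idi1 by 2.65 ± 0.05 (SE, adjusted p = 4.28e-21) and that of Acat2 by 2.56 ± 0.058 (SE, adjusted p = 1.48e-19), adjusted over all genes and 6 pairs of lines. Between LLC1 and Hepa1-6, 24 members had the higher change in LLC1 and 2 the lower one, where 22% and 22.7% of all genes did. The 2 were Insig2, at -0.30 ± 0.072 (SE, adjusted p = 0.00192), and Npc1, at -0.46 ± 0.092 (SE, adjusted p = 0.000303). Between LLC1 and MC38 the counts were 24 and 2, against 19.9% and 20.6% of all genes, and between LLC1 and AKR 25 and 3, against 19.7% and 20.1%. Between MC38 and Hepa1-6 they were 22 and 3, against 19.1% and 19.3%, and between AKR and Hepa1-6 22 and 1, against 20.5% and 21.4%. Between MC38 and AKR, 10 members had the higher change in MC38 and 13 the lower one, against 23.4% of all genes in each direction, and the synthesis enzymes were divided into 7 and 8.

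Of the 31 members tested in all 4 lines, 27 were called higher in at least 1 line and lower in another, where 33.4% of the 12674 genes were. None was called higher in all 4 lines or lower in all 4, which 0.237% and 0.387% of all genes were. Across the 20 synthesis enzymes the size of the change in LLC1 and in Hepa1-6 had a Pearson r of -0.65 and a Spearman rho of -0.57, so that enzymes with larger rises in LLC1 tended to have larger falls in Hepa1-6. For LLC1 and MC38 the values were -0.26 and -0.20, for LLC1 and AKR 0.34 and 0.32, for AKR and Hepa1-6 -0.47 and -0.43, for MC38 and Hepa1-6 -0.25 and -0.34, and for MC38 and AKR -0.0098 and 0.13. These coefficients are across genes, which are not independent replicates. The lines share no libraries, while the genes share their lengths and levels.

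Of 42 other genes of the pathway tested in each line, a smaller share was called, and in both directions. In LLC1, 13 were higher and 12 lower (31% and 28.6%, against 20.7% and 21.8% of all tested genes). In Hepa1-6, 8 were higher and 11 lower (19% and 26.2%, against 18.6% and 19.2%). In MC38, 7 were higher and 4 lower (16.7% and 9.52%, against 15.9% and 15.8%). In AKR, 7 were higher and 16 lower (16.7% and 38.1%, against 21% and 21.9%). The higher shares in Hepa1-6 and MC38 were near those of all genes. The same all-gene shares apply to the lists that follow. The median log2 fold change of the 42 was 0.0087 in LLC1, -0.02 in Hepa1-6, 0.0021 in MC38 and -0.15 in AKR. Of 8 genes of sterol sensing and SREBP processing, 7 were lower in AKR and none higher, led by the ER ubiquitin ligase March6 (-0.56 ± 0.051, adjusted p = 1.12e-05), and 5 were lower and 1 higher in LLC1, led by the sterol-regulated ER protein Erlin1 (-0.79 ± 0.045, adjusted p = 5.78e-09). In Hepa1-6 Erlin1 was higher (0.29 ± 0.058, adjusted p = 0.000866), and in MC38 March6 was higher (0.52 ± 0.062, adjusted p = 0.000201). Of 6 lipoprotein receptors and genes of lysosomal release, 4 were higher and 1 lower in LLC1, 3 and 2 in AKR, 3 and 0 in MC38 and 1 and 2 in Hepa1-6. Vldlr, a receptor for triglyceride-rich lipoproteins, was the largest rise of that list in MC38 (0.99 ± 0.063, adjusted p = 3.38e-06) and its largest fall in LLC1 (-0.64 ± 0.074, adjusted p = 7e-06). The apolipoprotein receptor Lrp8 was the largest rise in AKR (0.81 ± 0.056, adjusted p = 1.7e-06) and the largest fall in Hepa1-6 (-0.32 ± 0.059, adjusted p = 0.000507).

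Of 8 genes of intracellular sterol transport, the carrier Stard5 led in MC38 (1.04 ± 0.088, adjusted p = 2.1e-05), Hepa1-6 (0.89 ± 0.073, adjusted p = 1.17e-07) and, downward, AKR (-1.16 ± 0.072, adjusted p = 8.32e-07), and in LLC1 the ester hydrolase Nceh1 was the single gene called (-0.32 ± 0.046, adjusted p = 6.68e-05). Of the list of LXR, its partner and its targets, 3 were higher and 2 lower in LLC1, led by Apoe (-0.81 ± 0.22, adjusted p = 0.00943), the apolipoprotein that accepts exported cholesterol. In Hepa1-6, where the members Abca1, Abcg1 and Mylip were higher, 1 of that list was higher, the ABCA1 relative Abca7 (0.55 ± 0.066, adjusted p = 7.94e-06), and 3 were lower, led by Nr1h3 (-0.41 ± 0.15, adjusted p = 0.0408), which encodes an LXR. In MC38 none was higher and 2 were lower, led by the other LXR gene, Nr1h2 (-0.37 ± 0.072, adjusted p = 0.00344). In AKR 1 was higher, the small GTPase gene Arl4c (0.53 ± 0.055, adjusted p = 2.54e-05), and 1 lower, the phospholipid-remodelling enzyme Lpcat3 (-0.31 ± 0.067, adjusted p = 0.00331). Of the 9 genes of the isoprenoid branch, which leads to ubiquinone, dolichol and prenylated proteins, 5 were called in LLC1, 5 in Hepa1-6, 4 in AKR and 2 in MC38, and the values of all 9 lay between -0.57 and 0.30. Of the oxysterol enzymes, 3 of 4 tested were higher in LLC1 and none lower, led by Cyp46a1, a cholesterol hydroxylase (0.93 ± 0.13, adjusted p = 3.49e-05). In Hepa1-6 1 was higher, the oxysterol hydroxylase Cyp39a1 (0.42 ± 0.12, adjusted p = 0.01), and 1 lower, Hsd3b7, a dehydrogenase of bile acid synthesis (-0.29 ± 0.071, adjusted p = 0.00406). In MC38 the oxysterol hydroxylase Cyp7b1 was the single one called (1.88 ± 0.22, adjusted p = 0.000191), and in AKR Hsd3b7 was (1.31 ± 0.063, adjusted p = 1.56e-07).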

How the data were processed

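Strand-specific RNA-seq libraries of total RNA were sequenced as paired ends, per the labels. Reads were handled with FastQC 0.11.5, STAR and DESeq2 on mm10, per the submitters' processing notes. The gene counter, its annotation and its strand setting are not given in the sources used here. The authors deposited 1 table per line of log2 values, log2(count divided by a size factor, plus 1). Undoing the log gave the normalised counts printed, and dividing by the step of 1 read gave whole reads for 100% of values within 0.05 of a read. Count tests were not run on these log2 values. Each line was fitted on its own 6 libraries with limma 3.58.1 in R 4.3.3 (moderated test with an intensity trend, two-sided, Benjamini-Hochberg adjustment over all genes tested), after a filter that kept genes at log2 3.5 or more in 3 or more libraries. Differences between lines were tested over the 24 libraries and the 12674 genes tested in all 4 lines, with an F test and 6 pairwise differences. The fits were tested on simulated data. Gene positions come from GENCODE M21 and promoters from RefSeq, both on GRCm38, and 26 of the 32 members had a promoter entry. The members, sub-groups, gene lists and motifs were chosen with earlier results of these data known. Values in every library are given for the called member with the largest rise and the largest fall in each line and sub-group, for Hmgcs1, Sqle, Insig1, Srebf2, Stard4, Abca1 and Mylip, and for the 3 members with the lowest interaction p. Of the other pathway genes, the one with the largest called change per list and line could be named, and Nr1h3 and Hsd3b7 in Hepa1-6 and Lpcat3 in AKR were named after their values were seen. Alternatives were another pseudocount, 2 other filters, 2 other scalings, no trend, a replicate block and leaving out each library.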

Additional observations from a re-analysis of the deposited data

Results flagged for a closer look

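The change with sgB2m differed between the 4 lines for 30 of the 31 members tested in all of them, by limma's F test of the line by guide interaction with Benjamini-Hochberg adjustment over 12674 genes, where 69.8% of all genes differed. Each gene that follows has such a difference. Among the synthesis enzymes the adjusted p was 7.48e-21 for Hmgcs1, 1.56e-20 for Idi1, 4.28e-19 for Acat2, 4.28e-19 for Lss, 4.20e-17 for Sqle, 7.81e-14 for Dhcr7 and 5.45e-08 for Ebp. Hmgcs1, Idi1, Acat2 and Sqle had a higher change in LLC1 than in each of the other lines and fell in Hepa1-6. Dhcr7 fell in Hepa1-6 too, and its changes in LLC1 and AKR differed by 0.15 ± 0.093 (SE, adjusted p = 0.209), which did not pass. Ebp had its largest rise in MC38 (0.75), but the LLC1 minus MC38 difference of -0.29 ± 0.12 (SE, adjusted p = 0.0598) did not pass. Lss fell in AKR and Hepa1-6. Among the regulators it was 4.06e-18 for Insig1, 8.18e-09 for Srebf2, 2.06e-05 for Scap and 0.000315 for Insig2. Among the genes of uptake, transport and export it was 4.88e-14 for Stard4, 1.29e-08 for Soat1, 1.03e-07 for Abcg1 and 1.45e-05 for Mylip. Abcg1 had its largest rise in AKR (1.79) and was lower in MC38 (-0.61), and Mylip rose in Hepa1-6 (0.74) and fell in AKR (-0.32).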

How the results depend on the processing

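No called member changed direction under any alternative that was run. The count of lower members in AKR was 3 without the trend and 3 to 5 when 1 library was left out, against 6. In LLC1 it was 1 to 2 when 1 library was left out, against 2. In MC38 it was 0 to 1 when 1 library was left out and 0 with no filter, median centring, no trend or the replicate block, against 1. With median centring the median log2 fold change of the synthesis enzymes was 0.17 in MC38, 0.079 in AKR and -0.55 in Hepa1-6, and that of the regulators in AKR 0.0022. With quantile normalisation these medians were 0.13 for the MC38 enzymes, -0.54 for the Hepa1-6 enzymes, 0.077 for the AKR regulators and 0.45 for the AKR uptake, transport and export genes. Leaving out 1 library moved the enzyme median between 0.14 and 0.17 in MC38, 1.38 and 1.48 in LLC1, 0.10 and 0.15 in AKR, and -0.54 and -0.51 in Hepa1-6. It moved the uptake, transport and export median between 0.31 and 0.37 in AKR and between 0.23 and 0.31 in Hepa1-6. Srebf2, which did not pass in either line, changed sign to -0.011 in MC38 with quantile normalisation and to 0.0028 in Hepa1-6 without sgNT replicate 2, with -0.066 as the lowest value there when 1 library was left out. Without the trend Hmgcs1 in MC38 had an adjusted p of 0.0533 and Scap in AKR 0.0613, and without a filter Scap in AKR had 0.0506, Stard4 in MC38 0.084 and Abcg1 in MC38 0.0914. Without the trend 27 of 29 calls remained in LLC1, 27 of 30 in Hepa1-6, 11 of 17 in MC38 and 17 of 23 in AKR. The cause was not tested. The labels do not say whether the replicate numbers pair the samples. Libraries with the same number had deviations that correlated between -0.03 and 0.05. With 3 libraries per group these values cannot exclude a pairing. With the number as a block all 29 calls remained in LLC1 and all 30 in Hepa1-6, 15 of 17 in MC38 and 20 of 23 in AKR. Between 30 and 31 members differed between lines under the alternatives. Few reads limit the values of Abca1 in LLC1 and AKR, where Hepa1-6 libraries of like depth held 1558 to 2461 reads of it, and 3 libraries per group limit all p-values.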
